A study of Mus musculus with 2 samples.

Results

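The miR-26 family of the mouse consists of 3 microRNA genes, Mir26a-1, Mir26a-2 and Mir26b, and all 3 were found among the 2202 microRNA genes counted in these libraries. Members were taken by matching the gene identifiers of the tables to these symbols in the GENCODE M21 annotation, without use of the counts. The material was the gastrocnemius, a muscle of the calf. The animals were B6CASTF1/J males at 36 days of age, first-generation hybrids of C57BL/6J and CAST, and the labels name no transgene and no treatment. There is 1 group with 2 libraries, replicates 1 and 2, whose labels describe 2 different males but give both the same donor identifier. The spread between them may therefore be biological or technical. With 1 group and no other condition, the comparisons are among genes within the muscle and between the 2 libraries.

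A microRNA is cut from a hairpin in a longer transcript, and its 5p or 3p arm guides a silencing complex to messenger RNAs that pair with its seed, bases 2 to 8 from the 5′ end. The miR-26 hairpins are carried by the genes of the small C-terminal domain phosphatases, enzymes that act on RNA polymerase II and on the retinoblastoma protein. In muscle, miR-26a is known for rising as myoblasts differentiate and for repressing Ezh2, the Polycomb histone methyltransferase.

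The mature sequences show what separates the members, and the seed is in capitals. They are RefSeq sequences on GRCm38.p6, all from the plus strand.
miR-26a-5p (Mir26a-1 and Mir26a-2): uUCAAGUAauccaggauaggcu
miR-26b-5p (Mir26b): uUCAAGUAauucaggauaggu
miR-26a-1-3p (Mir26a-1): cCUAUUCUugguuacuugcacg
miR-26a-2-3p (Mir26a-2): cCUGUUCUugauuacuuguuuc
miR-26b-3p (Mir26b): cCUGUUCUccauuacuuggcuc

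All 3 loci carry the same 5p seed, UCAAGUA, and these were the only ones to do so among the 1679 mature microRNA names of the RefSeq table. Counting from the 5′ end, miR-26b-5p differs from miR-26a-5p by C11U and C21U and is 1 base shorter, at 21 bases against 22. The 3p arms differ more. From miR-26a-1-3p to miR-26a-2-3p there are 6 substitutions, of which A4G lies in the seed, so that Mir26a-2 and Mir26b share the 3p seed CUGUUCU and Mir26a-1 has CUAUUCU. The seed CUGUUCU also occurs in miR-6932-3p and miR-7039-3p.

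The hairpins are shown next with the 5p arm in capitals, because the bases around that arm decide which locus a read can be assigned to.
Mir26a-1: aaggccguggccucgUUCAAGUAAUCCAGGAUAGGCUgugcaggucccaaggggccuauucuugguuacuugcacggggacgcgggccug
Mir26a-2: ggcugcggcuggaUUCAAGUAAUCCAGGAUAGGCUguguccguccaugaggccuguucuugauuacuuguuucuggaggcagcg
Mir26b: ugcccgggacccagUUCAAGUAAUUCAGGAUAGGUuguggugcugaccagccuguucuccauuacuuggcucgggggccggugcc

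The Mir26a-1 and Mir26a-2 hairpins were identical over 66 of 91 alignment columns (72.5%). Mir26b was identical to Mir26a-1 over 64 of 93 columns (68.8%) and to Mir26a-2 over 62 of 92 (67.4%). The longest stretch common to both Mir26a hairpins has 25 bases, starts at the first base of the 5p arm and runs 3 bases past its end. A window that starts at that first base had to be 26 bases long, 4 more than the mature arm, before it occurred in only 1 of the annotated hairpins. A window of 22 bases that starts 1 base upstream already did so, as did every window of 18 bases in either 3p arm. In Mir26b, every window of 18 bases occurred in that hairpin alone. This search covered the 2202 annotated hairpins on both strands with no mismatch, and the rest of the genome was not analysed here.

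**Figure D1:**
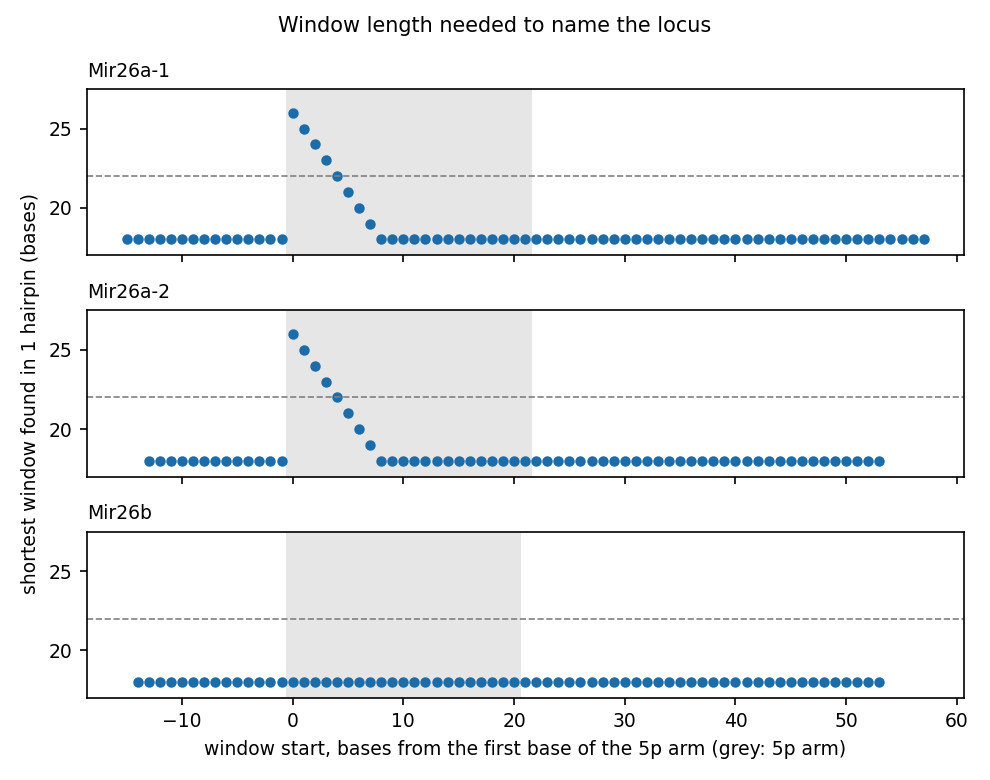
For each start along the 3 hairpins (x axis, bases from the first base of the 5p arm, which is shaded), the points give the shortest window in bases that occurs in 1 annotated hairpin only (y axis, lengths below 18 not examined, dashed line at 22). Only windows that start within the first 8 bases of the 5p arm of Mir26a-1 and Mir26a-2 need more than 18 bases, and the need is 26 at the first base.

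The tables keep reads aligned to several loci in a row of their own, outside the genes. That row held 13878974 reads of replicate 1 and 12282813 of replicate 2, or 71.8% of all reads on average. The mature miR-26a-5p sequence has the same letters at both of its loci, so a read of exactly that arm cannot name its locus. Among the annotated hairpins, a read of miR-26b-5p can. The counts of Mir26a-1 and Mir26a-2 below therefore describe only reads that were placed at 1 locus, and they do not measure how much miR-26a the muscle holds. Which arm or end variant the counted reads came from is not given by the tables. CAST alleles were not analysed here.

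The places of the 3 genes are alike. Mir26b (ENSMUSG00000065468.1) lies at chr1:74394310-74394394 of mm10, in intron 4 of Ctdsp1. Mir26a-1 (ENSMUSG00000065513.1) lies at chr9:119031796-119031885, in intron 5 of Ctdspl. Mir26a-2 (ENSMUSG00000065430.1) lies at chr10:126995530-126995613, in intron 5 of Ctdsp2. All 3 stand on the plus strand, as do their hosts. Introns are numbered in the principal coding transcript of each host. No exon of Ctdsp1 or Ctdspl overlaps the hairpin, while 1 base of the Mir26a-2 hairpin falls within an untranslated exon of a shorter Ctdsp2 transcript and within a retained-intron transcript.

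In each host the intron is preceded by an exon of 57 bases and followed by one of 93 bases, and it interrupts the reading frame between codons. Adjacent coding exons of those lengths were annotated in 16 of 21951 protein-coding genes (0.0729%), the 3 hosts among them. The lengths were taken from the hosts themselves, so their presence in that number was fixed in advance and is no test. The hosts' order of likeness differed between these exons. The upstream exons of Ctdspl and Ctdsp2 were identical at 44 of 57 bases (77.2%), and those of Ctdsp1 matched Ctdspl at 38 (66.7%) and Ctdsp2 at 39 (68.4%). In the downstream exon, Ctdspl and Ctdsp1 were identical at 78 of 93 bases (83.9%), and Ctdsp2 matched each of them at 76 (81.7%). The 57-base exons are given here, from the GENCODE M21 transcripts, as the coding sequence that directly precedes the microRNA introns, with the 36 bases common to all 3 hosts in capitals.
Ctdsp1, chr1:74394019-74394075: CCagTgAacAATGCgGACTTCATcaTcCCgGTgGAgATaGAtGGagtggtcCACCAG
Ctdspl, chr9:119030196-119030252: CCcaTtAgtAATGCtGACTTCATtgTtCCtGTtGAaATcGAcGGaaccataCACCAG
Ctdsp2, chr10:126993852-126993908: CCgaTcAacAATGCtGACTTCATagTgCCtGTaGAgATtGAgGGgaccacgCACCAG

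The introns themselves differ in length. That of Ctdsp1 has 564 bases, with Mir26b 234 bases from the upstream exon and 245 from the downstream one. That of Ctdspl has 3283 bases, with Mir26a-1 likewise near the middle at 1543 and 1650 bases. The intron of Ctdsp2 has 1946 bases, and Mir26a-2 lies late in it relative to its length, 1621 bases from the upstream exon and 241 from the downstream one. The messenger RNA of the hosts was not measured in these libraries.

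**Figure D2:**
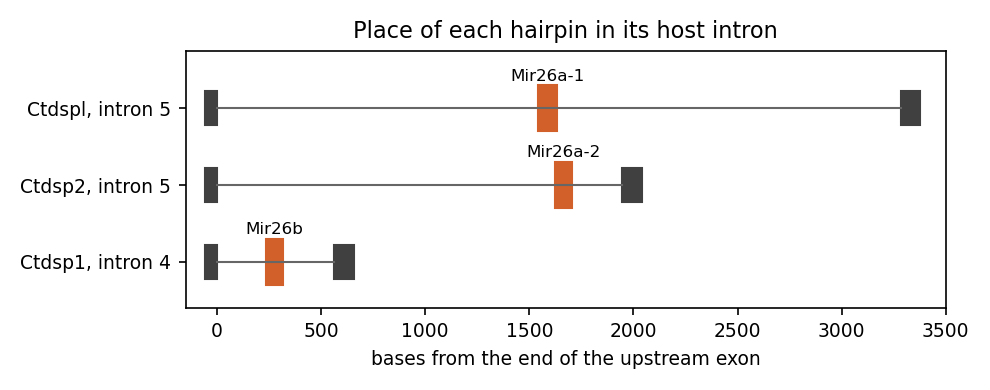
The 3 host introns are drawn to scale from the end of the upstream exon (x axis, bases), with the flanking exons as dark boxes and the microRNA hairpin in orange. Mir26b sits in the shortest intron, of 564 bases, and both it and Mir26a-2 lie within 245 bases of the downstream exon.

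The libraries held 4134880 and 3219740 reads counted on the strand of a microRNA gene, and levels are given as CPM, counts per 1000000 of these. Of 2202 genes, 639 had at least 1 count. Muscle markers were looked up beside the tissue label, and all 9 had counts. So did all listed genes of red cells, liver and epithelium, so the presence of counts does not test the label. The muscle genes held 2.74% and 3.04% of the counted reads in replicates 1 and 2. Nearly all of this was Mir206, at 27262 ± 2019 CPM (SD, n = 2). The Mir1a and Mir133 genes had means of 3.28 to 331 CPM, and each shares at least 20 bases with another of them. Reads within such a stretch cannot name a locus, so the marker shares do not give the make-up of the tissue. Markers of other cells were present too. The endothelial Mir126a held 8.54% and 9.58%, the smooth muscle and pericyte genes Mir143 and Mir145a together 8.53% and 9.36%, and the 4 matched leukocyte genes 0.185% and 0.190%. The 2 red cell genes held 0.0405% and 0.0394%, Mir122 of the liver 0.00206% and 0.000466%, and the 5 epithelial genes 0.00152% and 0.000808%. The 9 glial and neuronal genes held 0.430% and 0.124%, nearly all as Mir338, with all 6 Mir124a and Mir9 loci at 0. Each of those 6 hairpins shares a stretch of at least 20 bases with others of its family. Reads within that stretch cannot name a locus, so the counts of 0 do not show absence. miR-26 is made in many cell types, and how much of its counts came from muscle fibres was not tested.

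Mir26b, the Ctdsp1 member, whose 5p arm occurs in 1 annotated hairpin, held nearly all counted reads of the family. Its counts were 97110 in replicate 1 and 67228 in replicate 2, which is 23486 and 20880 CPM. Its mean was 22183 ± 1842 CPM (SD, n = 2), place 13 of all genes. The most abundant gene, Mir378a, was 5.88-fold above it. Both libraries agreed on its place to within 1 rank (12 and 13).

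Mir26a-2, the Ctdsp2 member, was an intermediate gene. Its counts of 2639 and 1576 in replicates 1 and 2 correspond to 638 and 489 CPM. Its mean was 564 ± 105 CPM (n = 2) in place 84, and its values in the libraries lay further apart, relative to the mean, than those of Mir26b (coefficients of variation 18.7% and 8.31%).

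Mir26a-1, the Ctdspl member, was the lowest of the 3. Its 45 and 40 counts correspond to 10.9 and 12.4 CPM in replicates 1 and 2, with 95% intervals by the exact Clopper-Pearson method of 7.94 to 14.6 and of 8.88 to 16.9. Its mean was 11.7 ± 1.09 CPM in place 256. All intervals cover counting error only, as PCR copies are not independent molecules.

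The 3 levels did not overlap in either library, and the order Mir26b, Mir26a-2, Mir26a-1 was the same in both. The family together held 2.41% of counted reads in replicate 1 (95% interval 2.40 to 2.43) and 2.14% in replicate 2 (2.12 to 2.15). Within the family, Mir26b took 97.3% and 97.7% of the reads, Mir26a-2 took 2.64% and 2.29%, and Mir26a-1 took 0.0451% and 0.0581%. No read of any member was counted on the opposite strand, and the limit that 0 counts set, 3 counts, is 0.726 CPM for replicate 1 and 0.932 for replicate 2.

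The size of the row of reads aligned to several loci sets these shares in proportion. Mir26b exceeded the sum of both Mir26a loci by 94426 reads in replicate 1 and 65612 in replicate 2. These numbers equal 0.680% and 0.534% of the reads aligned to several loci. How many of those reads carry miR-26a is not given by the tables, so miR-26a and miR-26b cannot be ranked against each other.

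The steps between the members were of similar size on the log2 scale. Mir26b exceeded Mir26a-2 36.8-fold in replicate 1 and 42.6-fold in replicate 2, a log2 ratio of 5.31 ± 0.15 (SD, n = 2). The counting intervals of that fold, 35.4 to 38.3 and 40.6 to 44.9, did not overlap, but they cover counting error only and do not show that the animals differ. Mir26a-2 exceeded Mir26a-1 58.0-fold in replicate 1 and 38.9-fold in replicate 2, a log2 ratio of 5.57 ± 0.41. Here the intervals, 43.7 to 80.6 and 28.8 to 55.4, overlapped and were wide, with 45 and 40 counts in the lower gene. Whether the libraries differ in this ratio was not tested. Mir26b over Mir26a-1 gave a log2 ratio of 10.88 ± 0.26. All 3 ratios had the same direction in 2 of 2 libraries and were larger than their SD, but with 2 libraries the smallest p of an exact two-sided sign-flip permutation test is 0.5.

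The order of levels around each member was examined with ranges over both libraries. Mir26b overlapped only Mir99a and Mir30a, whose means were 23715 ± 2840.1 and 23675 ± 798 CPM, and it did not overlap the gene in the next lower place, Mirlet7d, at 17684 ± 240.4 CPM. Mir26a-2 overlapped 20 genes and Mir26a-1 overlapped 19, so their places in the order are loosely fixed. The likeness of level was measured by the larger of the absolute log2 ratios of CPM + 1 in the 2 libraries. By it, the 3 genes nearest to Mir26b were Mir99a (0.13), Mir30a (0.22) and Mirlet7d (0.40). Nearest to Mir26a-2 were Mirlet7c-2 (0.01), Mir154 (0.07) and Mir409 (0.07), and nearest to Mir26a-1 were Mir133b (0.19), Mir653 (0.19) and Mir1968 (0.22). Mirlet7c-2 had 2624 and 1584 counts beside 2639 and 1576 for Mir26a-2.

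The Mir26a loci were then set beside other pairs of genes that hold one and the same mature arm. The RefSeq table gave 61 such pairs, and in 19 both loci had at least 10 counts summed over the libraries. Some genes stand in more than 1 pair. Among the 19 pairs, the median log2 ratio of the higher to the lower locus was 1.65 (3.13-fold). The Mir26a pair, at 5.57 (47.5-fold), was in place 3 of the 19. Above it stood Mir196a-2 over Mir196a-1 at 8.69 ± 0.24 and Mir181b-2 over Mir181b-1 at 8.04 ± 1.14. Directly below came Mirlet7f-2 over Mirlet7f-1 at 5.08 ± 0.14. Read from the first base of the shared arm, the higher locus of the let-7f, Mir196a and Mir181b pairs occurred in a single hairpin 1 base past the arm, against 4 bases past it for Mir26a-2. The ranking is a description of reads placed at 1 locus, and reads of the shared arms themselves are not in it. Pairs with fewer than 10 counts at a locus are not in it either, and some of them may have larger ratios.

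**Figure D3:**
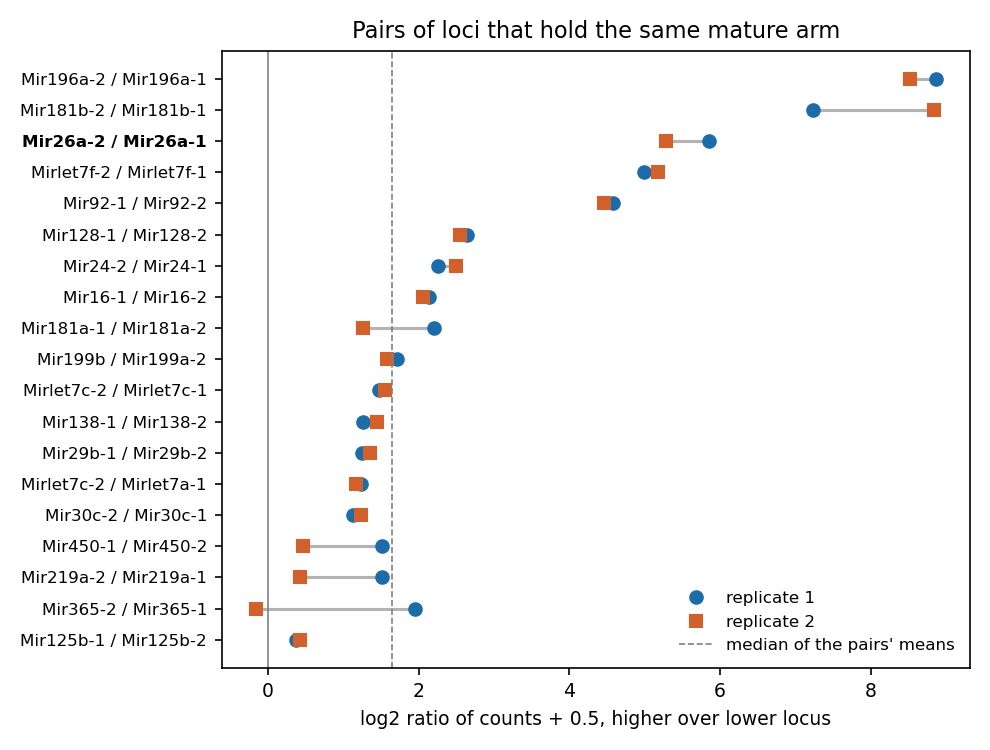
For the 19 pairs of genes with the same mature arm, points give the log2 ratio of counts + 0.5 of the higher to the lower gene (x axis) in replicate 1 (circles) and replicate 2 (squares), and the dashed line marks the median of the pairs' means at 1.65. The Mir26a pair, in bold, lies at 5.86 and 5.28. Of the 19 pairs, only the Mir196a and Mir181b pairs have a larger mean ratio, and pairs with too few counts at a locus are not shown.

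The miR-103 and miR-107 genes are the closest counterpart, since they too lie in introns of paralogous hosts, the pantothenate kinase genes that start coenzyme A synthesis, with 1 mature sequence at a pair of loci and a relative at a single one. Mir103-1 (Pank3), Mir103-2 (Pank2) and Mir107 (Pank1) all lie in intron 5 of their host, between exons of 124 and 126 bases. The mature 3p arms, with seeds in capitals, show how near these relatives are.
miR-103-3p (Mir103-1 and Mir103-2): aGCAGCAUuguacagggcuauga
miR-107-3p (Mir107): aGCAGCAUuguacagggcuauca

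Mir107 had 397 and 370 CPM in replicates 1 and 2, Mir103-2 had 9.19 and 10.2 CPM from 38 and 33 counts, and Mir103-1 had 1.21 and 0.621 CPM from 5 and 2 counts. In both families the highest gene was the one with no arm in common with another locus. The other genes are counted without reads of exactly their shared arm, so neither this order nor the ratios rank the output of the genes. Mir107 exceeded Mir103-2 by a log2 ratio of 5.28 ± 0.18 (n = 2), close to the 5.31 ± 0.15 of Mir26b over Mir26a-2. The level of Mir26b was 57.9 times that of Mir107. The miR-26 arm differs from its duplicated relative earlier, so that 18 bases of miR-26b-5p name its locus, while miR-107-3p needs 22 of its 23 bases, both among annotated hairpins.

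Other microRNAs reported to act on Ezh2 were compared next as a fixed list of 4. Mir101b had 1560 and 1352 CPM in replicates 1 and 2, Mir214 had 1286 and 904, Mir101a had 683 and 565, and Mir101c had no counted read. The 3 counted genes lay below Mir26b, which was 15.2 times Mir101b, 20.3 times Mir214 and 35.6 times Mir101a by mean CPM. They lay above Mir26a-2, but the libraries of Mir101a overlapped it. Mir26a-2 is counted without reads of exactly the miR-26a-5p arm, so this order does not rank these microRNAs against miR-26a. Mir101a and Mir101b share a stretch of at least 20 bases, and a read wholly within it cannot name its locus, but unlike the Mir26a loci they are not among the counted pairs with an identical mature arm.

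**Figure D4:**
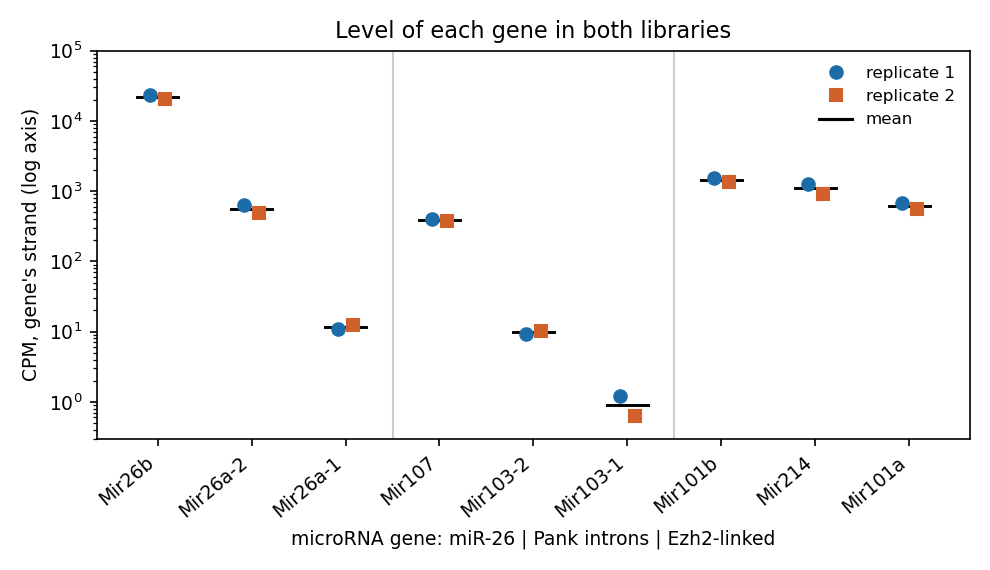
Points give CPM on a log axis in replicate 1 (circles) and replicate 2 (squares) for the miR-26 genes, the Pank intron genes and the counted Ezh2-linked genes, with bars at the mean (n = 2). Mir26b, at 23486 and 20880 CPM, is the highest of all 9 genes, and in the first 2 groups the 3 genes step down with no overlap.

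The last comparison was between the libraries. TMM scaling, which aligns the bulk of genes between libraries, was applied, and the 261 genes whose mean reached 10 CPM were compared. Of these, 5.36% were past 2-fold (4.98% lower and 0.383% higher in replicate 2), and 0 of the 3 miR-26 genes were. This comparison has 1 library on each side and no test. On the log2 scale of CPM + 1, replicate 2 over replicate 1, Mir26b stood at −0.0027 (counting interval −0.02 to 0.01). Mir26a-2 stood at −0.22 (−0.31 to −0.13), lower in replicate 2. Mir26a-1 stood at 0.33, with an interval of −0.29 to 1.01 that spans no difference.

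These ratios move with the scaling. The median over all tested genes was −0.05 with TMM and −0.21 with scaling to the total count. Relative to that median, Mir26b stood at 0.05 with TMM and 0.04 with the total count. Mir26a-2 stood at −0.17 with both, and Mir26a-1 at 0.38 and 0.39. A change of scaling shifts all genes by nearly the same log2 amount, so these near-equal values follow from the arithmetic. The direction of Mir26b itself turned, from −0.17 with total counts to 0.05 with DESeq2 size factors and 0.12 with upper-quartile scaling. Mir26a-2 was lower in replicate 2 and Mir26a-1 higher under each of these 4 scalings. Of the counted glial and neuronal markers, Mir338 was lower in replicate 2, at 4285 and 1236 CPM, as was Mir219a-2 at 9.19 and 4.66 CPM. Mir219a-1 went the other way, at 3.14 and 3.42 CPM from 13 and 11 counts. Mir122 of the liver was lower in replicate 2, at 20.6 and 4.66 CPM. The part of these markers in the miR-26 values was not tested.

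**Figure D5:**
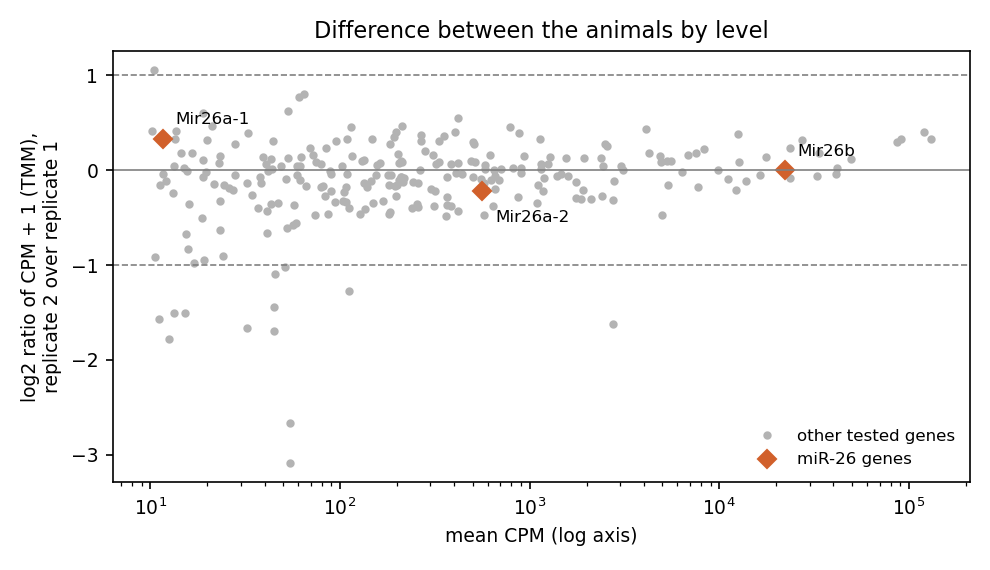
Each point is a gene whose mean reached 10 CPM, with that mean on a log axis (x) and its log2 ratio of replicate 2 over replicate 1 after TMM scaling (y). Dashed lines mark a 2-fold difference, and the 3 miR-26 genes (diamonds) lie between them at 0.33 (Mir26a-1), −0.22 (Mir26a-2) and −0.0027 (Mir26b).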

How the data were processed

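The deposited tables, 1 per library, hold whole-number read counts per microRNA gene in 3 columns (strand ignored, the gene's strand, the opposite strand) and 4 rows that name no gene. The deposited descriptions name mm10 as assembly and M21 as annotation. For the aligner, the counting program and trimming, nothing is stated in the labels or headers. In replicate 1, 20.96% of 19726010 reads were counted in genes, 70.4% aligned to several loci, 7.05% were unmapped and 1.63% fell outside any gene. In replicate 2, the shares of 16764463 reads were 19.2%, 73.3%, 6.02% and 1.51%. Those 4 rows stayed out of the library sizes.

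CPM used the column of the gene's strand. Pair ratios were log2 of counts + 0.5. Ratios between the libraries were log2 of CPM + 1 after TMM (edgeR 4.0.16, factors 1.06 and 0.944). They covered genes whose mean reached 10 CPM, and this step was tested on simulated data. DESeq2 1.42.0 gave alternative size factors. Intervals are exact Clopper-Pearson 95% (SciPy 1.17.1), and a count of 0 allows 3 counts. Hairpins were aligned globally with Biopython 1.88 (match 1, mismatch −1, gap opening −2, extension −0.5). Principal host transcripts were those tagged by APPRIS with the longest coding sequence. RefSeq sequences (GRCm38.p6) were matched for all 3 members. The genes named are the members, the 3 nearest to each in level, the Pank, Ezh2 and marker lists, and the duplicated pairs beside Mir26a and at the top. Members and lists were chosen with earlier results of these data known. Mir142a of the leukocyte list had no match by that symbol, and the list also held Mir142, which did. No library was left out.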

Additional observations from a re-analysis of the deposited data

How the results depend on the processing

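The 3 ratios between members kept their direction with pseudocounts of 0.1 and 5, and moved by less than 1 SD, and they had the same direction in each replicate alone. In the column that ignores strand, member counts, and so the ratios, were unchanged, but the library totals were smaller. The means became 29517 CPM for Mir26b, 749.6 for Mir26a-2, 15.5 for Mir26a-1 and 3.03% for the family. Without the most abundant gene in the library size, Mir26b had 25498 CPM, Mir26a-1 13.4 CPM and the family 2.62%. With every read in the library size they were 4467 and 2.33 CPM, with 113.9 CPM for Mir26a-2 and 0.458% for the family. Between the libraries, the log2 ratio of Mir26b was −0.17 with total counts and 0.051 with DESeq2 size factors. It was 0.12 with upper-quartile scaling and 0.023 in the column that ignores strand. That of Mir26a-2 was −0.38 with total counts and −0.091 with upper-quartile scaling. Genes past 2-fold numbered 14 of 261, or 41 of 639 with no minimum and 2 of 165 with a minimum of 100 CPM. Mir26a-1 could not enter at 100 CPM. No paired analysis was possible because there is 1 group. Depth limits Mir26a-1 most, at 45 and 40 counts.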
